A study of Mus musculus with 5 samples.

Results

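The transcripts described here come from 9 genes of plasma cell differentiation and antibody secretion: Jchain, Mzb1, Xbp1, Prdm1, Irf4, Sdc1, Tnfrsf17, Derl3 and Creld2. They were taken by gene symbol from a count table of 54113 named genes, and all 9 passed the filter on low counts that left 16133 genes for testing. The table holds bulk RNA sequencing of 5 tumours labelled CRC (colorectal cancer) from C57BL/6 mice, of which 3 were exposed to 30 °C and 2 to 4 °C, in both cases for 2 weeks. No genetic change or drug is given for either group. The study's mouse colorectal line was MC-38, but the labels of these libraries name neither the line nor the site of implantation, and they do not state that each tumour came from a separate mouse. The p-values therefore measure only the spread between these 5 samples.

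A plasma cell is the end stage of a B lymphocyte and exists to make and secrete antibody. The factor IRF4 starts the programme, PRDM1 (BLIMP-1) shuts down the B cell identity genes, and XBP1 enlarges the endoplasmic reticulum (ER) so that it can fold and export large amounts of immunoglobulin. Inside the ER, MZB1 assists the assembly of antibody and the J chain links IgM and IgA into polymers, whereas DERL3 and CRELD2 belong to the general folding and disposal machinery, which other secretory cells use too. On the surface, SDC1 (CD138) is the usual flow cytometry marker of plasma cells, and TNFRSF17 (BCMA) receives the survival signals BAFF and APRIL. Immune cells of a tumour are known to include B cells and plasma cells, and the study compared cold housing with housing near thermoneutrality.

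The labelled tissue was set beside marker genes before the comparison. Summed over 11 epithelial and intestinal markers, the libraries held between 19.6 and 125 CPM (counts per 1000000 counts on named genes). The intestinal markers Vil1 and Cdx2 did not exceed 0.215 and 0.458 CPM. Others of the list were higher. Lgals4 stood between 0.837 and 1.91 CPM, Epcam between 7.91 and 11.4 CPM, and Krt8 reached 59.7 CPM. These single markers were named after their values were seen. The 12 B cell markers together reached between 1493 and 4457 CPM, above the epithelial sum in every library. The 12 immunoglobulin constant genes reached between 14063 and 23414 CPM. In this text the word tumour follows the labels, and how much carcinoma tissue each library held was not tested. The 25 markers of pancreatic acinar cells, which secrete digestive enzymes, made up 27.1% of the counts of 30 °C replicate 2 and 0.268% of those of 4 °C replicate 2, against at most 0.00835% in the other 3 libraries. This share lowers the CPM of all other genes in 30 °C replicate 2. Jchain stood at 920 CPM there, and at 1262 CPM over the counts outside the acinar markers. The CPM and the sums of immunoglobulin and cell type genes in this text are not corrected for it. Values without 30 °C replicate 2 are given for some genes and lists only, and other fold changes may depend on that tumour too. Library totals lay between 16191708 and 20320525 counts, so that 3 counts correspond to 0.148 to 0.185 CPM. The 95% Wilson intervals of the members' shares had half-widths from 1.09% of the value for Jchain to 39.1% for Tnfrsf17, and they cover counting error only.

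The promoter sequences of Derl3 and Creld2 are shown because they separate these genes from the other members by a feature that the choice of genes did not use. The ER stress response element (ERSE), the element through which ATF6 with NF-Y, and also XBP1, act on chaperone genes, has the letters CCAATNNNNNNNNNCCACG. It was searched on both strands in the 250 bases before each RefSeq start on GRCm38.p6, where 8 of the 9 members had a window and Mzb1 did not. Matches were found in Derl3 and Creld2 and in no other member with a window. Among all 32851 windows, 0.113% held a match. In the sequences below, which run 5′ to 3′ on the strand of the gene, capitals mark the match, which in both genes reads on the opposite strand. The first comes from chr10:75893148-75893397 and the second from chr15:88819396-88819645, both on the plus strand.
Derl3: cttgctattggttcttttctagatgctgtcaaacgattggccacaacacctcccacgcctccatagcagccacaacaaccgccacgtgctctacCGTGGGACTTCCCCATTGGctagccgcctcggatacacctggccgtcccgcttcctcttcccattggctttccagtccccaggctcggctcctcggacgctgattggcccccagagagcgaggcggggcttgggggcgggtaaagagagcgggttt
Creld2: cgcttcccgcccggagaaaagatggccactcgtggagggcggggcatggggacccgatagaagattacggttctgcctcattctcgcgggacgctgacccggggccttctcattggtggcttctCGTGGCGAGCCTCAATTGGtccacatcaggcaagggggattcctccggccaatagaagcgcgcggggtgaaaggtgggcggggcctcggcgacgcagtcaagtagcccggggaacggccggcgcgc
The match lay at bases -156 to -138 from the start in Derl3 and at bases -126 to -108 in Creld2. The letters overlap with the shorter motifs CCAAT and CCACG, of which the Derl3 window held 5 and 3 and the Creld2 window 3 and 2, both strands counted. Of all windows, 33.8% held CCAAT and 28.3% held CCACG. None of the 8 members with a window had the XBP1 motif TGACGTGG (0.563% of windows), the ERSE-II letters ATTGGNCCACG (0.0304%) or the octamer ATGCAAAT (1.60%). The interferon-type motif GAAANNGAAA, held by 2.98% of windows, was present in the window of Tnfrsf17 alone among the members. A match of letters is a description and does not show that a factor was bound.

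The comparison of 4 °C with 30 °C asked whether the transcripts of antibody secretion differed with the housing temperature. None of the 9 genes passed the test, in which the smallest adjusted p over all genes was 0.689 (edgeR quasi-likelihood test, Benjamini-Hochberg adjusted over 16133 genes, 0% called). At an unadjusted p under 0.05, Mzb1 alone of the 9 was higher at 4 °C, where 2.58% of all tested genes were higher and 4.17% lower. The DESeq2 test called 0.731% of all genes (118), and 0 of the 9, among which it gave no adjusted p for Tnfrsf17. The fitted log2 fold change, 4 °C minus 30 °C, was above 0 in 5 members and below 0 in 4, with a median of 0.23 beside a median of 0.0064 over all tested genes. In CPM, the 2 groups did not overlap for Mzb1 alone, a pattern with 4 °C above that 11% of all tested genes showed (4 °C below, 5.41%). After scaling by TMM (trimmed mean of M-values), they did not overlap for Mzb1 and Jchain, both with 4 °C above, as for 12.2% of all genes (4 °C below, 11%). In bulk tissue, a change in the number of plasma cells and a change in the RNA per plasma cell cannot be told apart.

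**Figure D1:**
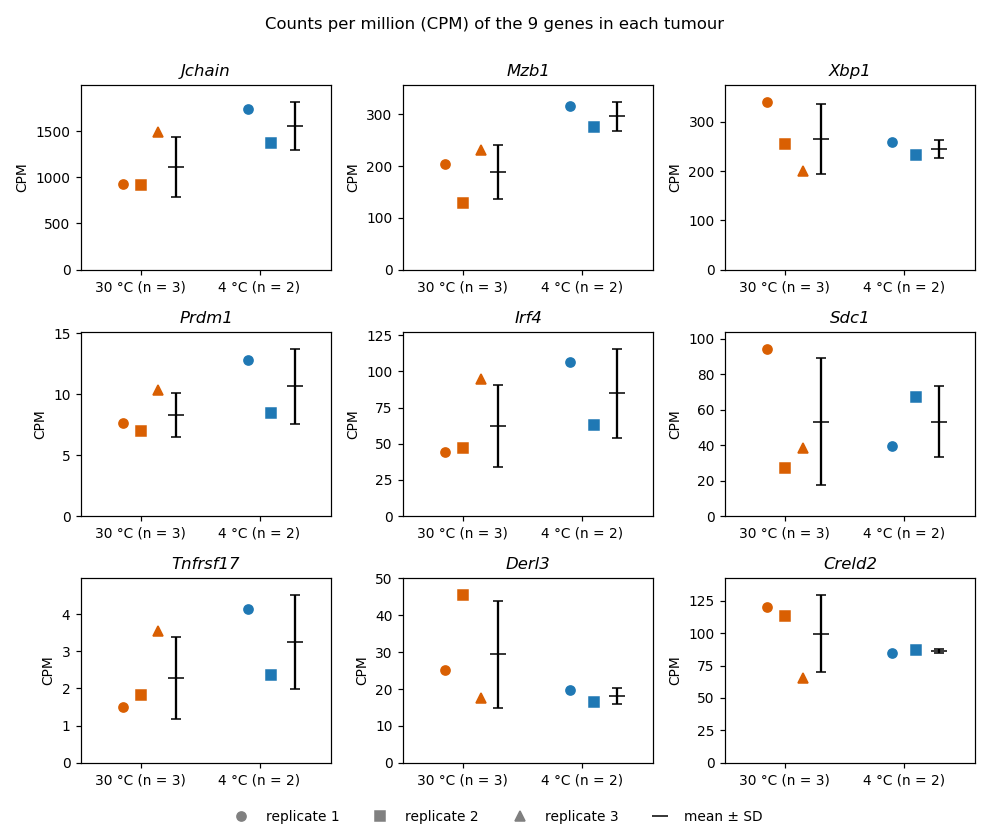
Counts per 1000000 counts (CPM, linear axes from 0) of the 9 genes in each tumour, by temperature, with the replicate number as the symbol and the mean ± SD beside the points. The 4 °C tumours lie above all 3 of the 30 °C tumours for Mzb1 only, and 30 °C replicate 2 has the highest level of Derl3 at 45.5 CPM.

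Jchain (chr5:88519809-88527891), which encodes the joining chain of polymeric antibody, was the most abundant member. It stood at 928, 920 and 1487 CPM in the 30 °C tumours and at 1737.5 and 1368 CPM in the 4 °C tumours. The 30 °C replicate 3 lay between both 4 °C tumours, so the groups overlapped in CPM. The means were 1112 ± 325 CPM (SD, n = 3) and 1553 ± 261 CPM (SD, n = 2), and the log2 fold change was 0.36 ± 0.24 (SE, adjusted p = 0.83 in the edgeR fit). It was 0.19 without 30 °C replicate 1, 0.22 without 4 °C replicate 1 and up to 0.48 without each of the others. Set against its partner Ighm, the heavy chain of IgM, Jchain gave 209, 276 and 212 counts per 1000 Ighm counts at 30 °C and 219 and 187 at 4 °C. On this ratio the groups overlapped, and the lowest value was at 4 °C.

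Mzb1, an ER protein of marginal zone B cells and plasma cells that assists IgM assembly, had the smallest p of the 9. Its levels were 205, 129 and 231 CPM at 30 °C and 316 and 276.5 CPM at 4 °C. Every 4 °C value lay above every 30 °C value, and the acinar-rich 30 °C replicate 2 was the lowest. The means were 188 ± 52.7 CPM (SD, n = 3) and 296 ± 27.7 CPM (SD, n = 2), with a log2 fold change of 0.56 ± 0.16 (SE), an unadjusted p of 0.011 and an adjusted p of 0.69 (edgeR). The adjusted p in DESeq2 was 0.116. Without 30 °C replicate 2 the log2 fold change was 0.49 with an unadjusted p of 0.060. In the GENCODE M21 annotation, a readthrough gene model on the same strand shares 695 of the 1215 exon bases of Mzb1, and how reads of both models were counted is not stated, so the count of Mzb1 is uncertain.

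Among the transcription factors, Irf4 (chr13:30749226-30766976), which is needed for plasma cell formation, stood at 44.4, 47.1 and 94.6 CPM at 30 °C and at 107 and 63.3 CPM at 4 °C. The values of 30 °C replicate 3 and 4 °C replicate 1 were high and the other 3 were low, whatever the temperature. The log2 fold change was 0.34 ± 0.34 (SE, adjusted p = 0.88).

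Prdm1 (chr10:44437177-44528501), which encodes BLIMP-1, was low throughout, at 7.61, 6.96 and 10.3 CPM in the 30 °C tumours and 12.8 and 8.46 CPM in the 4 °C tumours. Again the groups overlapped, and in CPM the same pair of tumours held the highest values. After TMM scaling, 30 °C replicate 2 (9.43) lay above 30 °C replicate 3 (9.16). Its log2 fold change was 0.23 ± 0.28 (SE, adjusted p = 0.89).

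Xbp1 (chr11:5520659-5525893) differed in pattern from Irf4 and Prdm1. It stood at 340, 255 and 200 CPM in the 30 °C tumours and at 259 and 232 CPM in the 4 °C tumours. The highest and the lowest value both belonged to 30 °C tumours, so the 4 °C tumours lay inside their range. The log2 fold change was -0.27 ± 0.30 (SE, adjusted p = 0.88), and it was -0.10 without 30 °C replicate 2, -0.17 without 30 °C replicate 1 and -0.51 without 30 °C replicate 3. XBP1 becomes active when the sensor IRE1 splices its mRNA, and a count per gene does not show how much of the mRNA was spliced.

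For the surface proteins, Tnfrsf17 (chr16:11313812-11320074), the receptor BCMA, rested on few counts, with 26, 30 and 72 at 30 °C and 77 and 38 at 4 °C. These correspond to 1.49, 1.81 and 3.54 CPM and to 4.14 and 2.35 CPM. The order of the tumours was that of Irf4 for the highest values, with 4 °C replicate 1 and 30 °C replicate 3 on top. The log2 fold change was 0.39 ± 0.47 (SE, adjusted p = 0.90). Tnfsf13b (BAFF), a ligand of this receptor family, stood at 9.95, 5.62 and 8.32 CPM and at 10.3 and 13.7 CPM (log2 fold change 0.49, adjusted p = 0.78). Tnfsf13 (APRIL), named after its values were seen, went the other way. It stood at 9.72, 4.23 and 6.74 CPM and at 5.96 and 6.05 CPM (log2 fold change -0.28, adjusted p = 0.88 in edgeR), and the groups overlapped.

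Sdc1 (chr12:8771323-8793715), which epithelial cells also express, had the widest spread within a group relative to its mean. Its values were 94.4, 27.0 and 38.6 CPM at 30 °C and 39.3 and 67.3 CPM at 4 °C. The highest and the lowest tumour were both at 30 °C, and the means were 53.3 ± 36.0 CPM (SD, n = 3) and 53.3 ± 19.8 CPM (SD, n = 2). The log2 fold change was -0.06 ± 0.48 (SE, adjusted p = 0.98). It was 0.52 without 30 °C replicate 1 and -0.56 without 4 °C replicate 2. The epithelial marker Krt8, chosen after its values were seen, ran from 3.17 to 59.7 CPM, and its part in the level of Sdc1 was not tested.

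Of the ER proteins, Derl3 (chr10:75893413-75895941), a derlin that helps draw misfolded proteins out of the ER, stood at 25.1, 45.5 and 17.6 CPM at 30 °C and at 19.7 and 16.5 CPM at 4 °C. The acinar-rich 30 °C replicate 2 was the highest, and the other 4 tumours lay within 16.5 and 25.1 CPM. The log2 fold change of -0.97 ± 0.59 (SE, adjusted p = 0.81) was the lowest of the 9, and without 30 °C replicate 2 it was -0.20. Per 1000 counts of its family members Derl1 and Derl2, Derl3 had 330 counts in 30 °C replicate 2 and between 87.9 and 110 in the other 4. Acinar markers and Derl3 were both highest in that library, and the part of acinar cells in the level of Derl3 was not tested.

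Creld2 (chr15:88819646-88826683), an ER stress inducible protein with disulphide isomerase activity, stood at 120, 114 and 65.5 CPM at 30 °C and at 85.0 and 87.4 CPM at 4 °C. Both 4 °C tumours were close together and inside the range of the 30 °C tumours. Its log2 fold change of -0.40 ± 0.39 (SE, adjusted p = 0.87) was -0.067 without 30 °C replicate 2 and -0.70 without 30 °C replicate 3. Per 1000 counts of Hspa5, the main ER chaperone (BiP), Creld2 gave 129, 140 and 101 counts at 30 °C and 109 and 119 at 4 °C, and the groups overlapped.

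**Figure D2:**
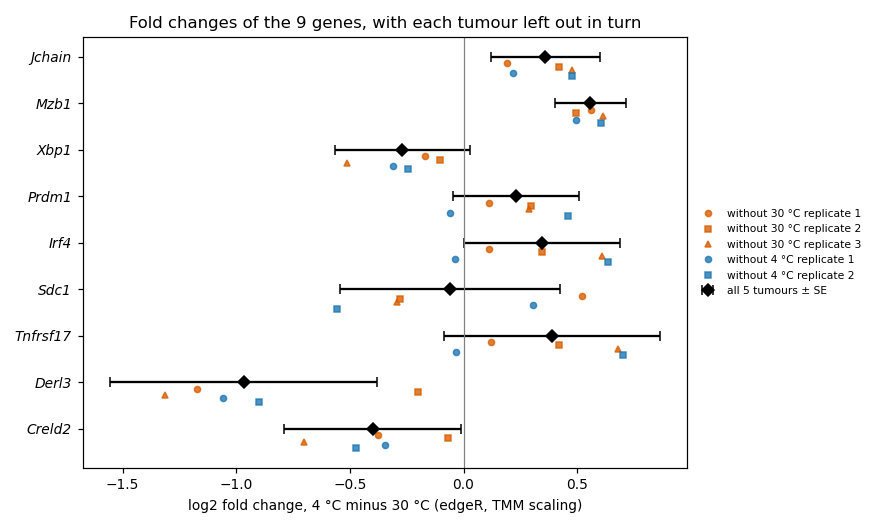
Fitted log2 fold changes (4 °C minus 30 °C, edgeR with TMM scaling) of the 9 genes from all 5 tumours (diamonds, ± SE) and with each tumour left out in turn (coloured points). Derl3 moves from -0.97 to -0.20 without 30 °C replicate 2, and the points of Mzb1 stay between 0.49 and 0.61.

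To compare levels between genes, CPM were divided by the length in kilobases of the merged exons of each gene. At 30 °C the order was Jchain (442 ± 129 CPM per kb, SD, n = 3), Mzb1 (155 ± 43.4), Xbp1 (81.6 ± 21.8), Creld2 (73.0 ± 21.8), Derl3 (14.7 ± 7.24), Sdc1 (14.0 ± 9.46), Irf4 (12.7 ± 5.76), Tnfrsf17 (2.80 ± 1.36) and Prdm1 (1.49 ± 0.321). The ranges of Xbp1 and Creld2 overlapped, as did those of Derl3, Sdc1 and Irf4 and those of Tnfrsf17 and Prdm1. The other neighbours in this order did not overlap. At 4 °C, Irf4 (17.3 ± 6.27 CPM per kb, SD, n = 2) ranked before Sdc1 (14.0 ± 5.21) and Derl3 (9.07 ± 1.13), with Irf4 and Sdc1 overlapping, and the order of the others was unchanged. Prdm1 was the least abundant member on this scale at both temperatures, at 1.91 ± 0.555 CPM per kb at 4 °C.

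Across the 5 tumours the members fell into groups by the tumour in which they were highest. Each gene's TMM-scaled log2 CPM was centred on its own mean, and profiles were compared by the root-mean-square (RMS) distance between them, in log2 units. Jchain, Mzb1, Prdm1, Irf4 and Tnfrsf17 were highest in 4 °C replicate 1, with 0.36 to 0.60 above their mean. Of these, Mzb1 was lowest in 30 °C replicate 2 and the other 4 in 30 °C replicate 1. Xbp1, Creld2 and Derl3 were instead highest in 30 °C replicate 2, by 0.45, 0.74 and 1.42, and Xbp1 and Creld2 were lowest in 30 °C replicate 3, as was Derl3 at -0.56. Sdc1 was highest in another tumour, with 0.86 in 30 °C replicate 1 and 0.44 in 4 °C replicate 2. These groups depend on the scaling. In CPM without TMM, Xbp1 and Creld2 were highest in 30 °C replicate 1, at 340 and 120 CPM. They stood at 255 and 114 CPM in 30 °C replicate 2.

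**Figure D3:**
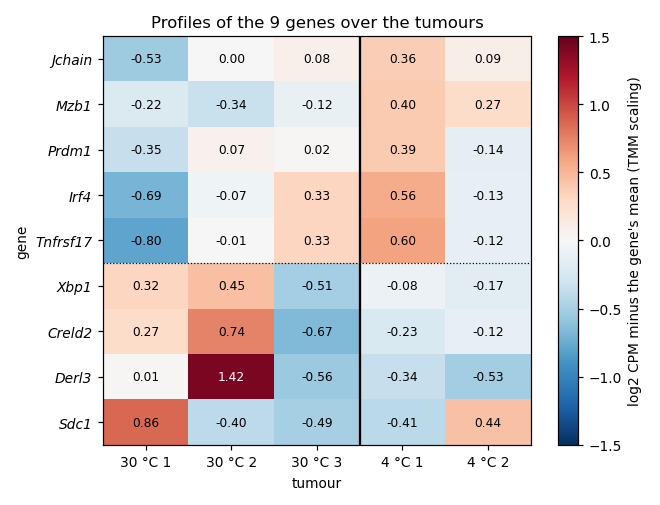
Centred log2 CPM (TMM scaling; colour and printed value) of the 9 genes in the 5 tumours, with 30 °C to the left of the vertical line. Derl3 in 30 °C replicate 2 has the highest value at 1.42, and Tnfrsf17 in 30 °C replicate 1 the lowest at -0.80.

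The closest members were Irf4 and Tnfrsf17 (RMS distance 0.055), followed by Jchain and Prdm1 (0.14) and Xbp1 and Creld2 (0.16). The farthest were Sdc1 and Derl3 (0.99). The distances did not separate these groups fully, since Xbp1 lay nearer to Prdm1 (0.47) than to Derl3 (0.50). Irf4 was the second nearest of all tested genes to Tnfrsf17, after Nrip2 (0.049). The nearest gene to Irf4 was Tmem132c (0.037), and Flt3 (0.044), the next but one, is a receptor of dendritic cell precursors. Prdm1 lay nearest to Cped1 (0.026), Jchain to Colq (0.040), Xbp1 to C1galt1c1 (0.045), Mzb1 to Gon7 (0.051), Sdc1 to Tmem273 (0.037) and Creld2 to Cmas (0.064). Derl3 had the most distant nearest genes, Pkp2 (0.12), Ica1 (0.15) and Rab3d (0.16), a small GTPase of secretory granules. With 5 samples that share their depth and scaling, many of the 16133 genes come close to any profile, and these distances are descriptions.

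The profile of Derl3 and Creld2 was set beside the other genes with an ERSE match. In all, 35 of 27025 genes with a window had one (0.130%). The list of 21 ER chaperones and folding enzymes, of which 19 had a window, held 7 of them: Hspa5, Hsp90b1, Pdia6, Calr, Canx, Dnajc3 and Ero1b. Of the ER-associated degradation list, 1 of 13 genes with a window had a match (Syvn1), and none of the 23 in the list of plasma cell regulators did. Of the 35 genes, 19 were tested. Their mean log2 CPM was lower at 4 °C in 13 and higher in 6 (median difference -0.18), and without 30 °C replicate 2 it was lower in 9 and higher in 10 (median difference 0.021). By the same measure 7855 of all tested genes were lower and 8278 higher (median 0.013), and 7914 and 8219 without that replicate (median 0.0081). In 12 of the 19, Derl3 and Creld2 among them, the highest TMM-scaled level was in 30 °C replicate 2. That tumour was the highest for 3148 (19.5%) of all 16133 tested genes. Hspa5 stood 0.50 above its mean there and Ero1b 1.61 above. The match of Creld2 is the same stretch of DNA that lies before Alg12, a mannosyltransferase gene on the opposite strand. Alg12, named after its values were seen, stayed between -0.10 and 0.19 of its mean over the 5 tumours, whereas Creld2 ran from -0.67 to 0.74.

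Markers of other cell types were read beside the members. The 12 B cell markers, none of which is made mainly by plasma cells, summed to 1535, 1493 and 3997 CPM at 30 °C and to 4457 and 3811 CPM at 4 °C. The sums overlapped, since 30 °C replicate 3 lay above 4 °C replicate 2. All 12 had a log2 fold change above 0 (median 0.71, from 0.48 to 0.96). In edgeR, 5 had an unadjusted p under 0.05 and 0 were called. At that p, 2.58% of all tested genes were higher and 4.17% lower. The median was 1.18 without 30 °C replicate 3, the 30 °C tumour with the highest sum. Medians without each of the other tumours are not given here. The tumours with high B cell sums included 30 °C replicate 3, which also was the 30 °C tumour with the most Irf4, Jchain and Tnfrsf17. The 8 T cell markers summed to 269, 218 and 469 CPM and to 606 and 582 CPM. In edgeR, 6 of the 8 were higher at an unadjusted p under 0.05 and 0 were called. DESeq2 called 4 of the 8 (smallest adjusted p 0.031), beside 0.731% of all genes. The 10 macrophage and dendritic cell markers summed to 3510, 2083 and 3309 CPM and to 3314 and 3975 CPM, and the groups overlapped. The part of these cells in the members' levels was not tested.

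Counts of 6 members were therefore also expressed per 1000 counts of the 12 B cell markers in the same library. Jchain gave 604, 616 and 372 at 30 °C and 390 and 359 at 4 °C. Mzb1 gave 133, 86.6 and 57.7 at 30 °C and 70.8 and 72.6 at 4 °C. On this scale 30 °C replicates 1 and 2 had the highest values of both genes, and the 4 °C tumours were near 30 °C replicate 3. These 2 libraries also had the lowest sums of B cell markers. Prdm1 gave 4.95, 4.66 and 2.59 at 30 °C and 2.88 and 2.22 at 4 °C. Irf4 gave 28.9, 31.5 and 23.7 at 30 °C and 24.0 and 16.6 at 4 °C. Tnfrsf17 gave 0.969, 1.21 and 0.886 at 30 °C and 0.928 and 0.616 at 4 °C, and Xbp1 gave 222 and 170 in 30 °C replicates 1 and 2 and at most 60.9 in the other 3 tumours. The mean of each of the 6 was lower at 4 °C, and the groups overlapped in all 6, whereas the fitted log2 fold change per library was above 0 in 5 of them, the exception being Xbp1.

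**Figure D4:**
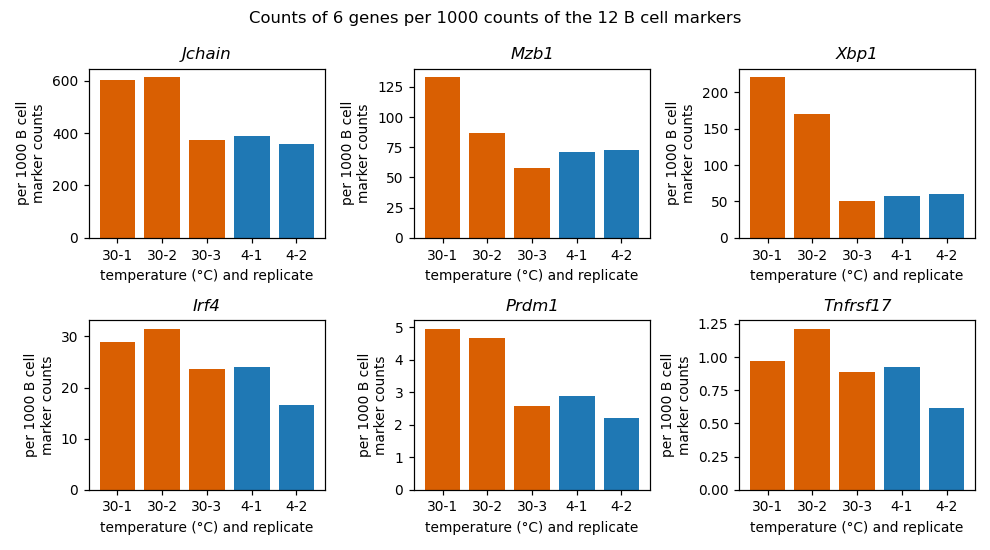
Counts of 6 genes per 1000 counts of the 12 B cell markers, 1 bar per tumour (orange 30 °C, blue 4 °C; axes from 0). The bars of 30 °C replicates 1 and 2 are the 2 tallest for each gene, with 604 and 616 for Jchain against 359 to 390 in the other 3 tumours.

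The other genes of the pathway were read from lists of known members. Of 26 regulators and receptors of plasma cells, 25 were tested (Il6 was not), 15 with a log2 fold change above 0 and 10 below (median 0.12). The edgeR fit called 0 of them and DESeq2 called 1 (adjusted p 0.031), beside 0.731% of all genes. The median was -0.043 without 30 °C replicate 1, 0.038 without 30 °C replicate 2, 0.26 without 30 °C replicate 3, -0.21 without 4 °C replicate 1 and 0.25 without 4 °C replicate 2. The smallest p values belonged to Cd27, a memory B cell and T cell receptor, at 11.8, 8.59 and 17.3 CPM in the 30 °C tumours and 26.6 and 27.4 CPM in the 4 °C tumours (log2 fold change 1.01, unadjusted p = 0.0030, adjusted p = 0.69), and to Ly6c2, which monocytes and plasma cells express (log2 fold change -0.81, unadjusted p = 0.021, adjusted p = 0.69). Bhlha15 (MIST1) and Fkbp11, named after their values were seen, are used by plasma cells and acinar cells alike. Bhlha15 stood at 14.7, 55.9 and 10.9 CPM at 30 °C and at 12.8 and 8.58 CPM at 4 °C. Fkbp11 stood at 20.6, 70.4 and 8.46 CPM and at 13.6 and 11.4 CPM. Both were highest in the acinar-rich 30 °C replicate 2, as was Derl3. The difference in mean log2 CPM was -1.11 for Bhlha15 and -1.01 for Fkbp11 with all tumours, and -0.21 and -0.021 without that replicate.

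Of 13 factors that hold or change the state of a B cell, 11 lay above 0 and 2 below (median 0.36), with 0 called. The median was 0.16 without 30 °C replicate 1, 0.75 without 30 °C replicate 3, 0.080 without 4 °C replicate 1 and 0.26 and 0.52 without 30 °C replicate 2 and 4 °C replicate 2. Id3, an inhibitor of E proteins, had the smallest p, at 45.4, 25.6 and 46.3 CPM and 61.4 and 75.2 CPM (log2 fold change 0.72, unadjusted p = 0.0083, adjusted p = 0.69). Spib and Irf8 followed with log2 fold changes of 0.68 and 0.41 and overlapping groups.

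The machinery of the secretory pathway had medians below 0 and no called gene. The values were -0.19 for 21 folding genes (5 above 0, 16 below), -0.19 for 17 genes of ER-associated degradation (4 above, 13 below), -0.16 for 38 genes of translocation and export (12 above, 26 below) and -0.21 for 11 sensors and stress genes of the unfolded protein response (2 above, 9 below). Without 30 °C replicate 2 the first 3 of these medians were -0.045, -0.073 and -0.038, and that of the stress genes was -0.23. Without 30 °C replicate 1 the median of the export genes was -0.082, without 30 °C replicate 3 those of folding and export were -0.36 and -0.27, and that of the stress genes was -0.54 without 4 °C replicate 1 and -0.012 without 4 °C replicate 2. In the folding list the smallest p values belonged to the oxidase Ero1l (log2 fold change -0.45), the chaperone Hyou1 (-0.43) and the disulphide isomerase P4hb (-0.69). In the degradation list, Nploc4, which acts with the p97 ATPase, had a log2 fold change of -0.40 (unadjusted p = 0.046, adjusted p = 0.73), and Sel1l, the adaptor of the ligase HRD1, stood at 124, 336 and 128 CPM and at 119 and 76.7 CPM (log2 fold change -1.31, adjusted p = 0.80). The 30 °C replicate 2 was again the highest for Sel1l, whose difference in mean log2 CPM, 4 °C minus 30 °C, was -0.34 without that replicate. For export, the cargo receptor Lman1 had -0.61, the coat protein Sec24d -0.45 and the signal recognition protein Srp14 0.40. After TMM scaling, Hyou1, P4hb and Lman1 were also highest in 30 °C replicate 2, at 237, 1013 and 170 CPM. Ero1l and Sec24d were highest in 30 °C replicate 1 instead, at 51.8 and 57.5 CPM. In the stress list, Ern1, which encodes IRE1, had a log2 fold change of -0.55 (adjusted p = 0.81).

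**Figure D5:**
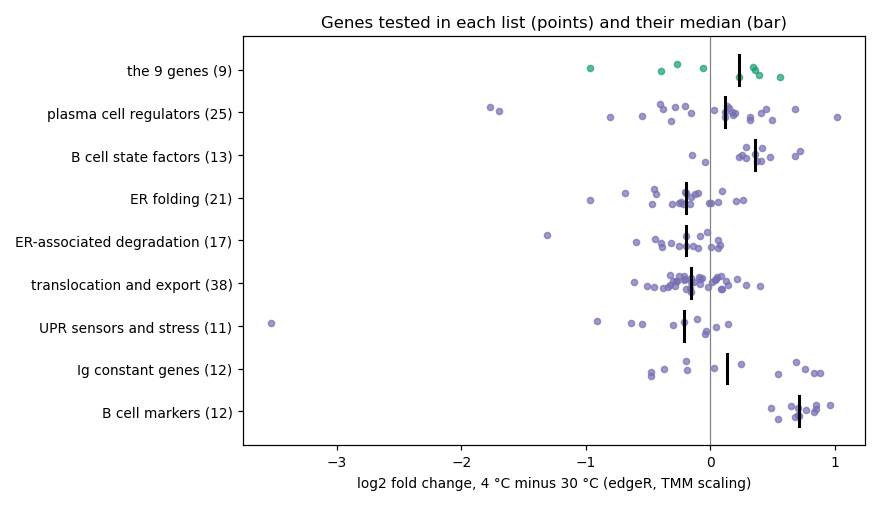
Log2 fold changes (4 °C minus 30 °C, edgeR with TMM scaling) of all tested genes of each list (points; number in brackets) and the median of each list (black bar). The medians of the 4 lists of secretory machinery lie between -0.21 and -0.16, that of the 9 genes is 0.23 and that of the B cell markers is 0.71.

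The product of plasma cells was measured through 12 immunoglobulin constant genes, which summed to 23414, 14063 and 19489 CPM at 30 °C and to 23005 and 22765 CPM at 4 °C. Of these, 7 had a log2 fold change above 0 and 5 below (median 0.14). In edgeR, 4 were higher at an unadjusted p under 0.05, beside 2.58% of all tested genes, and 0 were called. The median was 0.037 without 30 °C replicate 2, 0.27 without 30 °C replicate 1, 0.29 without 30 °C replicate 3, 0.24 without 4 °C replicate 1 and 0.10 without 4 °C replicate 2. The 3 with the smallest p were Ighd (log2 fold change 0.83, unadjusted p = 0.011), Iglc3 (0.88, 0.015) and Iglc1 (0.69, 0.024), all with an adjusted p of 0.69 or 0.70. Per 1000 counts of the 12 genes, Jchain gave 39.6, 65.4 and 76.3 counts at 30 °C and 75.5 and 60.1 at 4 °C. The lowest ratio was in 30 °C replicate 1, and the groups overlapped.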

How the data were processed

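RNA of 5 tumours, 3 at 30 °C and 2 at 4 °C, was analysed from 1 table. The authors deposited raw counts of aligned reads per gene. The paper's methods name featureCounts with the Gencode vM19 annotation, whereas the submitters' processing notes list fastp, HISAT, RSEM and GRCm38. Strand setting and the treatment of shared reads are not given in the sources used here. Libraries were made from 200 ng RNA for each group. Unnamed entries, 0.0101% to 0.0170% of the counts, were left out, and of 97 symbols held by several entries the one with the highest mean count was used.

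Counts were filtered with filterByExpr and scaled by TMM in edgeR 4.0.16 (R 4.3.3). The groups were compared with its quasi-likelihood test (robust, no covariate), adjusted by Benjamini-Hochberg and called under 0.05. Log2 CPM used a prior count of 2. Alternatives were DESeq2 1.42.0, RLE and upper-quartile scaling, library totals only, acinar or immunoglobulin genes left out of the scaling, no filter, at least 10 counts in every library, a block for the replicate number, non-robust estimation and each tumour left out in turn. The scripts were checked on simulated counts.

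The members and lists were chosen with earlier results of these data known. Besides all members, the text names from each list the 3 genes with the smallest p, and for each member the nearest of its 3 closest profiles, with other genes of these 3 in places. Markers of other cell types are given as sums. Other genes named are said to be chosen after their values were seen. Gene positions and lengths come from GENCODE M21 on GRCm38 and promoter sequences from RefSeq (GRCm38.p6).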

Additional observations from a re-analysis of the deposited data

How the results depend on the processing

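With 3 tumours against 2, and half-widths of up to 39.1% for Tnfrsf17, differences of the observed size in single members could not be told from the spread between tumours. None of the 9 genes was called under any alternative run. The number of called genes among all tested was 118 with DESeq2, 8 with library totals only and 44 with the replicate number as a block, and 3 with DESeq2 without 30 °C replicate 2, an alternative chosen after seeing the data. The median log2 fold change of the 9 genes was 0.36 with library totals only, a scaling that placed the median of all genes at 0.11, and it ran from -0.038 to 0.46 when tumours were left out in turn. Leaving out a 4 °C tumour leaves 1, which is assumed to vary like the others.

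Jchain, Mzb1, Xbp1, Derl3 and Creld2 kept their direction under all 16 alternatives. With tumours left out in turn, Sdc1 ran from -0.56 to 0.52, Prdm1 from -0.059 to 0.46, Irf4 from -0.038 to 0.63 and Tnfrsf17 from -0.033 to 0.70. The reversals came without 4 °C replicate 1, and for Sdc1 also without 30 °C replicate 1. Without 30 °C replicate 3, 4 of the 9 members had an unadjusted p under 0.05, beside 1477 of all 15786 genes tested in that setting. Without 30 °C replicate 2 no member did, beside 520 of 16026 genes. Genes with an unadjusted p under 0.05 numbered 1090 with all tumours, 520 without 30 °C replicate 2, 540 without 4 °C replicate 2 and between 913 and 1477 without each of the others. With upper-quartile scaling they split into 558 higher and 570 lower, against 417 and 673 with TMM, and with library totals only into 323 and 344. The replicate numbers share only a number. Deviations from the group mean correlated at -0.25 across genes for replicate 1 and at 0.26 for replicate 2. With 2 tumours at 4 °C, their deviations mirror each other, so these values cannot show whether the numbers pair. The highest correlation was 0.62, between 30 °C replicate 3 and 4 °C replicate 1. With the block, the log2 fold change of Mzb1 was 0.61 (unadjusted p = 0.067) and that of Derl3 -1.15 (unadjusted p = 0.023). The block also moved the list medians, to 0.73 for the B cell state factors, 0.32 for the immunoglobulin constant genes, 0.23 for the plasma cell regulators and -0.38 for the folding genes. The causes of these shifts were not tested.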

Other observations

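The constant genes of the antibody classes differed in their pattern over the tumours. Ighm, the heavy chain of the first antibody class a B cell makes, stood at 4434, 3327 and 7019 CPM at 30 °C and at 7938 and 7304 CPM at 4 °C. Every 4 °C value lay above every 30 °C value, as for 11% of all tested genes. The log2 fold change was 0.54 (unadjusted p = 0.032 in edgeR, where 2.58% of all tested genes were higher at an unadjusted p under 0.05). The 4 IgG genes together made up 610, 481 and 267 of every 1000 heavy chain constant counts at 30 °C and 351 and 289 at 4 °C, so that the groups overlapped and 30 °C replicates 1 and 2 were the highest. Igha, the heavy chain of IgA, which the J chain joins in pairs, stood at 1180, 1131 and 2016 CPM at 30 °C and at 1041 and 1665 CPM at 4 °C. Ighm, the IgG genes and Igha were named after their values were seen, and none was called.

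Of the 11 sensors and stress genes of the unfolded protein response, Trib3 and Ddit3 were far higher in 30 °C replicate 1 than in the other tumours. Trib3, a stress-induced pseudokinase, stood at 64.8, 6.17 and 1.62 CPM at 30 °C and at 0.752 and 3.52 CPM at 4 °C (log2 fold change -3.52, adjusted p = 0.80 in the edgeR fit). Ddit3, which encodes the stress factor CHOP, stood at 58.9, 14.8 and 17.4 CPM and at 15.3 and 18.4 CPM. Atf4 and Ppp1r15a were also highest in 30 °C replicate 1, at 358 and 393 CPM, with 250 and 183 CPM as the next highest values. Not all genes of the list followed this order. Atf3 was highest in 30 °C replicate 3, at 6.99 CPM against 4.98 CPM in replicate 1, and Eif2ak3, which encodes the sensor PERK, was lower in 30 °C replicate 1 (39.6 CPM) than in replicates 2 and 3 (49.7 and 63.0 CPM). Atf4, Ppp1r15a, Atf3 and Eif2ak3 were named after their values were seen. Sdc1 was also highest in 30 °C replicate 1.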
